A study of Mus musculus with 12 samples.

Results

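The carbonic anhydrase family of genes was followed in RNA from purified mouse brain myelin at 4 ages. The 10 genes are Car2, Car3, Car4, Car5b, Car7, Car8, Car10, Car11, Car12 and Car14, taken as a list of symbols. That list was drawn up with earlier results of these data known. It holds 10 of the 16 carbonic anhydrase genes and of the 21937 genes of any kind in the expression table. All 10 had a mean of at least 10 normalized reads over the 12 libraries and so were tested. The most abundant was Car2 with a mean of 9315 normalized reads, and the least abundant was Car3 with a mean of 25.1.

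Carbonic anhydrases are zinc enzymes that interconvert carbon dioxide and bicarbonate, and thereby take part in the control of pH and in ion and water transport. The family divides by place and by activity. Car2, Car3 and Car7 are enzymes of the cytosol, Car5b is a mitochondrial enzyme, and Car4, Car12 and Car14 are tied to the plasma membrane with their catalytic site outside the cell. Car8, Car10 and Car11 have the carbonic anhydrase fold but lack catalytic activity. In the brain, Car2 is known as an enzyme of oligodendrocytes, the cells that make myelin.

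Myelin was purified from brains of male c57Bl6/N mice as a light membrane fraction on sucrose gradients, and its RNA was sequenced. The 4 groups were postnatal day 18 (P18), postnatal day 75 (P75), 6 months (6mo) and 24 months (24mo), with 3 libraries in each and no treatment or genetic change in any. At 6 months the libraries come from 3 individual brains, and for the other ages the labels give 3 libraries without naming the animals, so p-values measure the spread between these libraries. The design compares the ages, and each age step shares its libraries with the next, so steps that meet at an age are not independent of each other.

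The libraries held 20299052 to 27214385 reads on genes. The myelin genes Mag, Mog, Mobp, Cnp, Cldn11, Opalin and Ermn were read in every library. Their summed level was 166170 to 349969 normalized reads at P18 and 103643 to 225861 in the other 9 libraries. Mobp made up most of the sum, with 180344, 265783 and 110326 in P18 replicates 1, 2 and 3. Each of the other myelin genes also had its lowest P18 value in replicate 3. P18 replicate 3 had the lowest sum of its age, 166170 against 261198 and 349969, and the calls that change without it are given with each gene. Markers of neurons, astrocytes, microglia, endothelium and choroid plexus were present in all 12 libraries as well. In such bulk RNA, fewer cells of a type in the preparation and less RNA per cell cannot be told apart.

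Car2 is on chromosome 3 from 14886426 to 14900769 (NCBIM37, the build called mm9), on the plus strand, with 7 exons. Its neighbours Car3, Car1 and Car13 lie within 259043 bases of the same chromosome, and Car3 ends 14074 bases before Car2 starts. Levels in this cluster ranged from 1.42 normalized reads per kb of exon for Car1 to 5207 for Car2, as means over 12 libraries. Car3 and Car13 had 16.6 and 33.4 reads per kb. Of the other members, Car4 (84771288 to 84779546) and Car10 (92959342 to 93463063) are on chromosome 11, Car5b (160414754 to 160465929) is on chromosome X, and Car7 (107058600 to 107074243) is on chromosome 8. Car8 (8070514 to 8166188) is on chromosome 4, Car11 (52955213 to 52960052) on chromosome 7, Car12 (66561493 to 66614652) on chromosome 9 and Car14 (95701691 to 95708614) on chromosome 3. Car14 shares 17.5% of its exon bases with Aph1a on the opposite strand.

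The start regions of Car4, Car11 and Car12 are shown because these 3 genes rose in both of the first age steps. Each window runs 5′ to 3′ on the plus strand from 250 bases before the start of a RefSeq transcript to 50 bases after it, on GRCm38.p6. Capitals mark letters that match a TATA box (TATAAA) or a GC box (GGGCGG, or its reverse complement CCGCCC), both searched on both strands. A match was counted at any place in the window. The windows are chr11:84957504-84957803 for Car4, chr7:45699554-45699853 for Car11 and chr9:66713436-66713735 for Car12.
Car4: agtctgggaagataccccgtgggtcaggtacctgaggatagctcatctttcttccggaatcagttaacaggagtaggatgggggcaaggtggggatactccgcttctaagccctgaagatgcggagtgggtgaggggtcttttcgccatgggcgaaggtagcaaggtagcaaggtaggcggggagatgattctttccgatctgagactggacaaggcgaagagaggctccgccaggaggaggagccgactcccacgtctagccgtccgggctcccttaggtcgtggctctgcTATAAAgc
Car11: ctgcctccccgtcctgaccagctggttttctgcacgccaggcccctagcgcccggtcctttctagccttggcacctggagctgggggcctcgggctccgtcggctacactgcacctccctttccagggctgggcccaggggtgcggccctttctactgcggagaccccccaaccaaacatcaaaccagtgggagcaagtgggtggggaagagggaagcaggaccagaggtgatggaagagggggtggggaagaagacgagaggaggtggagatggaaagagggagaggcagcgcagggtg
Car12: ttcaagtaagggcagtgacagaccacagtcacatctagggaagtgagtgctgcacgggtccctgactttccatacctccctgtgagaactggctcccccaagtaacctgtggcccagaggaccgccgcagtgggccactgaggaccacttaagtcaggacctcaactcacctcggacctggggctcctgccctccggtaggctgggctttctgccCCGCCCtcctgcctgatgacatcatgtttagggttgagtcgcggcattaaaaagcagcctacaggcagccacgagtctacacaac
The Car4 window held 1 match to TATAAA, which begins 42 bases after the start and so within the transcribed part, and no GC box. The Car12 window held 1 GC box, beginning 35 bases before the start, and no TATA box, and the Car11 window shown held neither. Their GC content was 57.3%, 64.7% and 58.3% for Car4, Car11 and Car12, against a median of 52.7% over 32851 RefSeq windows of the same length. They held 15, 11 and 9 CpG pairs against a median of 7. Another RefSeq window of Car11, chr7:45699717-45700016, is not shown. It had a GC content of 61.3%, 13 CpG pairs and neither box. Letters matching a GC box were present in 35.7% and those of a TATA box in 13.6% of all windows, at any place. RefSeq entries were matched for 7 of the 10 members.

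Within a library, levels of different genes were compared as normalized reads per kb of exon. Car2 was the most abundant member at every age, followed by Car8, Car11, Car10 and Car4 in the same order at all 4 ages. Car2 had 4342 ± 1011 reads per kb at P18 and 6624 ± 539 at P75 (SD, n = 3). Car8 had 1192 ± 82.4 and 1300 ± 90.7 at the same ages, so that Car2 stood apart from it in every library. At 24 months Car8 with 1296 ± 150.2 and Car11 with 1239 ± 137.5 reads per kb overlapped in their libraries, whereas at the 3 earlier ages they were apart. Car10 and Car4 overlapped at P75 and at 24 months.

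The lower part of the order changed with age. At P18 Car7 ranked sixth with 186.2 ± 34.3 reads per kb and overlapped Car4, while Car14 followed with 121.4 ± 10.4. At 24 months Car14 had 189.7 ± 11.95 and Car7 had 145.7 ± 8.75 reads per kb, with no overlap. Car12, Car5b and Car3 were the 3 lowest at every age. At P18 these 3 lay between 19.7 and 23.9 reads per kb and overlapped, whereas Car12 reached 66.6 ± 6.73 at 6 months and stood above both.

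**Figure D1:**
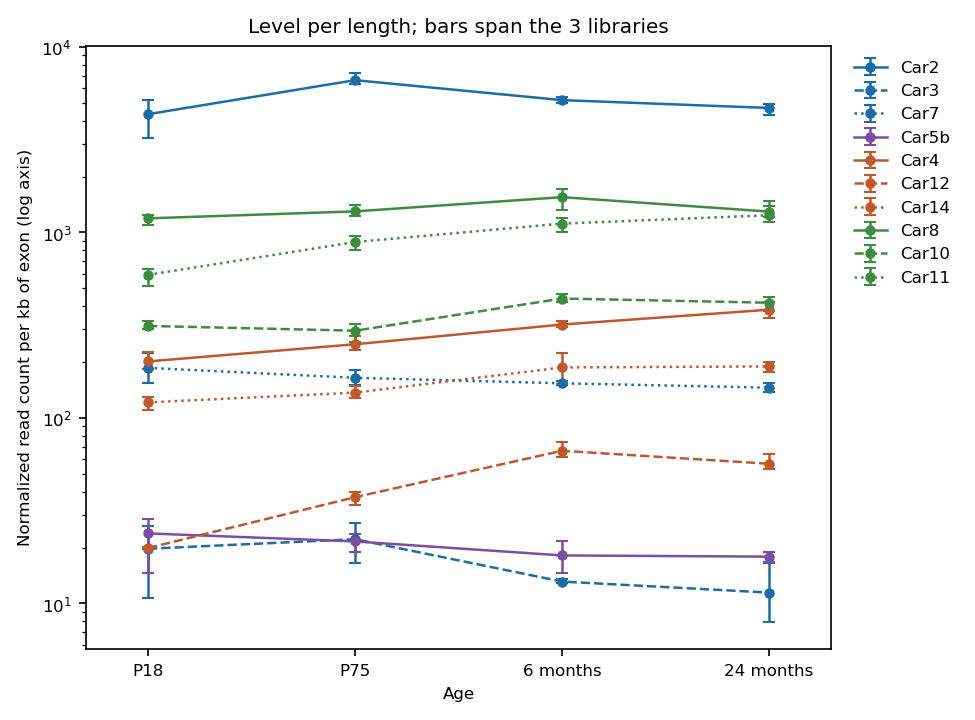
Normalized read count per kb of exon (log axis) of the 10 genes at each age. Points are means of 3 libraries and bars span the lowest to the highest library. Car2 lies above all other members, and Car12 leaves the bottom group after P18, rising from 19.9 to 66.6 reads per kb at 6 months.

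Changes with age were tested by limma on log2 normalized read counts over all 14634 genes with a mean of at least 10, and a gene was called at an adjusted p under 0.1. From P18 to P75, 4 of the 10 members rose and none fell, where 48.8% of all tested genes were called, 25.9% as higher and 22.9% as lower. From P75 to 6 months 6 members rose and 2 fell, where 60.6% of all genes were called, 31.2% as higher and 29.4% as lower. From 6 to 24 months 1 member rose and none fell, where 29.3% were called, 16.6% as higher and 12.7% as lower. Between the ends of the series, P18 and 24 months, 5 members rose and 2 fell, where 69% were called, 34.7% as higher and 34.3% as lower. The libraries of the ages compared did not overlap for 4, 7, 2 and 6 of the members in these 4 comparisons, where this held for 47.7%, 63.1%, 43.5% and 66.6% of all tested genes. The median log2 change of the members was 0.20, 0.29, -0.08 and 0.28 in these 4 comparisons, against 0.02, 0.01, 0.03 and -0.01 over all tested genes. With libraries scaled to the 7 myelin genes instead of by size factors, 10 members were higher in the first comparison and 9 in the last. In the second 1 was higher and 3 lower, and in the third 0 were called. Of the 14634 tested genes, 12884, 1399, 2743 and 11712 were then called higher in the 4 comparisons, and 80, 4765, 86 and 221 lower. The calls of Car4, Car8, Car10, Car11 and Car14 from P75 to 6 months, of Car4 from 6 to 24 months and of Car3 from P18 to 24 months were lost. Under this scaling Car7 rose from P18 to 24 months (log2 change 0.55), and the log2 change of Car8 from P75 to 6 months was -0.01. Over the 4 ages together 9 of 10 members differed by the F-test, all but Car5b, where 83.8% of all genes did.

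**Figure D2:**
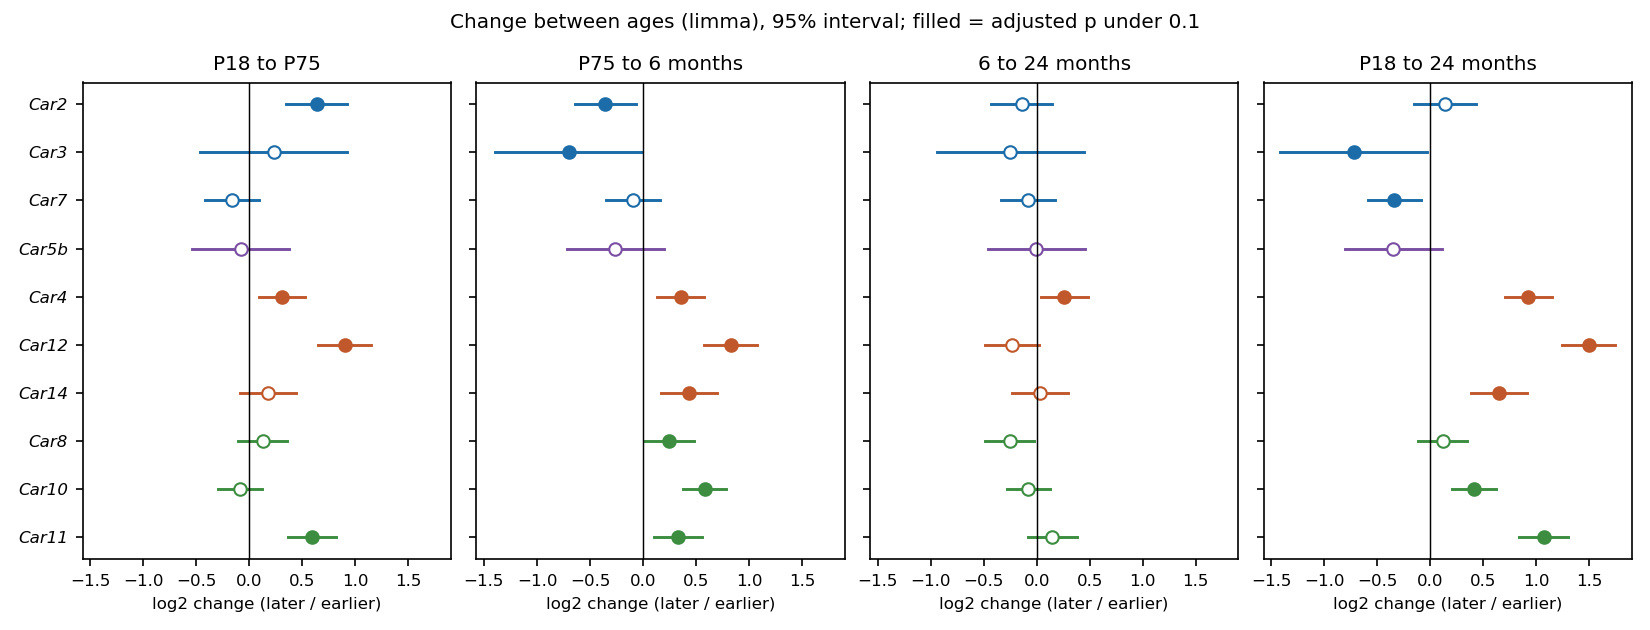
log2 change of each member in 4 age comparisons by limma, later over earlier age, with 95% intervals. Filled points passed an adjusted p of 0.1 over all genes. Car4, Car11 and Car12 lie right of 0 in both of the first steps, and Car4 alone is filled from 6 to 24 months.

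Among the cytosolic enzymes, Car2 peaked at P75. Its normalized read count was 9302, 8227 and 5772 in the 3 libraries at P18 and 11303, 11286 and 12963 at P75. At 6 months it was 8968, 9658 and 9120, and at 24 months 7737, 8612 and 8834. Every P75 library was above every library of the other ages. Car2 rose 1.55-fold from P18 to P75 (log2 change 0.64, SE 0.14, adjusted p = 0.00158, limma). It fell to 0.782 times the P75 level by 6 months (log2 change -0.36, SE 0.14, adjusted p = 0.0383, limma). Both steps rest on the same 3 P75 libraries. Without P75 replicate 3 the second step had a log2 change of -0.29 and an adjusted p of 0.134.

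From 6 to 24 months Car2 was not called (log2 change -0.14, 95% interval -0.43 to 0.15, adjusted p = 0.494, limma), although all 24-month values were below all 6-month values. The P18 and 24-month libraries of Car2 overlapped, with a log2 change of 0.14 that was not called (adjusted p = 0.396, limma). P18 replicate 3 held the lowest of the 12 Car2 values, and without it that change was -0.06. Without P18 replicate 1 the change was 0.28 and was called (adjusted p = 0.0852, limma). Of the red blood cell genes, Hba-a1, Hbb-b1 and Hbb-b2 were listed at 0 in all 12 libraries. The reason for these values of 0 was not tested, and they were not taken as absence of red blood cell RNA. Alas2, a heme synthesis gene of red blood cell precursors, averaged 415.7 at P18 and 41.1 at P75. Slc4a1, the exchanger of red blood cells, averaged 34.9 at P18 and 2.92 at P75. The part of red blood cell RNA in the Car2 values was not tested.

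Car2 was also measured against the 7 myelin genes of the same library, which does not depend on how libraries are scaled. Its log2 level minus the mean log2 level of the myelin genes was -0.51, -0.77 and -0.57 at P18 and 0.80, 0.92 and 0.98 at P75. At 6 months it was 0.26, 0.16 and 0.43, and at 24 months 0.25, 0.47 and 0.50. All P18 libraries were below, and all P75 libraries above, those of the other ages. The mean difference was 1.52 from P18 to P75 and -0.62 from P75 to 6 months, each with an exact two-sided permutation p of 0.1, the smallest that 3 against 3 can give. From 6 to 24 months it was 0.13 (exact permutation p = 0.3), and from P18 to 24 months 1.03 (exact permutation p = 0.1). Against the median in place of the mean of the myelin genes, that last difference was 0.49. Over the first step 5 of the 7 myelin genes fell and none rose by limma, in a step where Car2 rose.

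Of the summed reads per kb of the 10 members, Car2 held 68.0%, 62.7% and 53.3% in the P18 libraries and 66.3%, 67.1% and 70.4% at P75. The share was 55.9%, 59.3% and 56.4% at 6 months and 55.5%, 55.3% and 55.8% at 24 months. The P75 libraries were all above those of both later ages, and the P18 libraries spread over most of that range. From P75 to 6 months the mean share changed by -10.7 percentage points and from 6 to 24 months by -1.69 points, each with an exact two-sided permutation p of 0.1. The later of these changes was -0.77 points without the correction for length (exact permutation p = 0.8) and -0.65 points without 6-month replicate 2. From P18 to P75 the mean share rose by 6.61 points, which was within the spread of the P18 libraries (exact permutation p = 0.3).

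**Figure D3:**
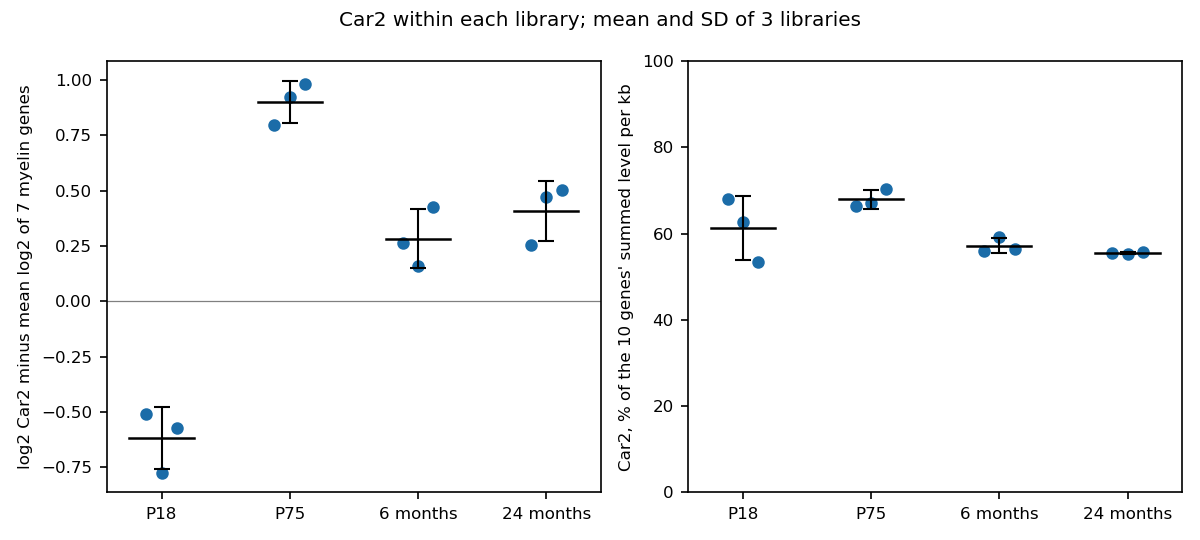
Left, log2 Car2 minus the mean log2 of 7 myelin genes in each library. Right, the percentage of the summed reads per kb of the 10 members held by Car2. Dots are libraries, and lines and bars are the mean and SD of 3. P75 has the highest mean in both panels, and the P18 libraries are the lowest on the left only.

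Car3, a cytosolic enzyme of low activity known from muscle and fat, was the least abundant member and was supported by 13 to 41 reads in a library. Its normalized read count was 39.2, 33.9 and 16.1 at P18 and 41.1, 25.03 and 34.3 at P75. At 6 months the libraries had 19.5, 20.4 and 19.5 and at 24 months 14.9, 24.9 and 12.03. All P75 libraries were above all 6-month libraries, whereas P18 and 24 months overlapped. Car3 fell to 0.615 times its P75 level by 6 months (log2 change -0.70, SE 0.33, adjusted p = 0.0819, limma). From P18 to 24 months it fell to 0.607 times the first level (log2 change -0.72, SE 0.33, adjusted p = 0.0651, limma). At an adjusted p of 0.05 neither was called, and with no filter on low values the first was not. The first call was also lost without P75 replicate 1 or 3 or any 6-month library, and the second without P18 replicate 1 or 2 or 24-month replicate 1 or 3, with adjusted p up to 0.236 and 0.253. The muscle and fat genes Acta1, Ckm, Myh1, Adipoq and Cfd summed to 173.5 to 206.9 normalized reads at P18 and 150.2 to 159.2 at P75. The sum was 94.1 to 138.2 at 6 months and 99.0 to 108.0 at 24 months. Acta1 made up most of it, with means of 162.7, 133.7, 94.96 and 87.16 at the 4 ages. Ckm, Adipoq and Cfd averaged under 10 and were not tested for change, and Ckm averaged 5.58 at P18 and 6.59 at 24 months. The part of the muscle and fat genes in the Car3 result was not tested.

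Car7, a cytosolic enzyme known from neurons, fell over the whole span of ages. It measured 381, 444 and 548 normalized reads at P18 and 446, 397 and 373 at P75. It was 376, 387 and 372 in the 6-month libraries and 339, 355 and 381 in the 24-month ones. The largest value was in P18 replicate 3, the library with the lowest Car2. None of the single steps was called, with log2 changes of -0.17, -0.10 and -0.08. Without P18 replicate 1 the first of them was -0.29 and was called (adjusted p = 0.0688, limma). From P18 to 24 months Car7 fell to 0.791 times its first level (log2 change -0.34, SE 0.12, adjusted p = 0.0202, limma). Without P18 replicate 3 the change was -0.20 with an adjusted p of 0.113, and with libraries scaled to the same total it was not called. Of the neuronal genes Syt1, Snap25, Rbfox3, Stmn2 and Nefl, 3 fell and 1 rose over the same span, and their part in the Car7 result was not tested.

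Car5b, the mitochondrial enzyme, was the only member not called in any comparison. Its normalized read count was 180.6, 181.9 and 92.4 at P18 and 140.3, 151.1 and 120.5 at P75. At 6 months the libraries had 116.2, 137.6 and 92.5 and at 24 months 107.0, 121.1 and 112.9. The SD at P18 was 51.3, with replicate 3 at about the level of the lowest 6-month library. The log2 change from P18 to 24 months was -0.35 with a 95% interval of -0.81 to 0.11 (adjusted p = 0.17, limma). Without P18 replicate 3 it was -0.67 with an adjusted p of 0.0016, and from P18 to P75 -0.40 with 0.0528, and both changes were then called.

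**Figure D4:**
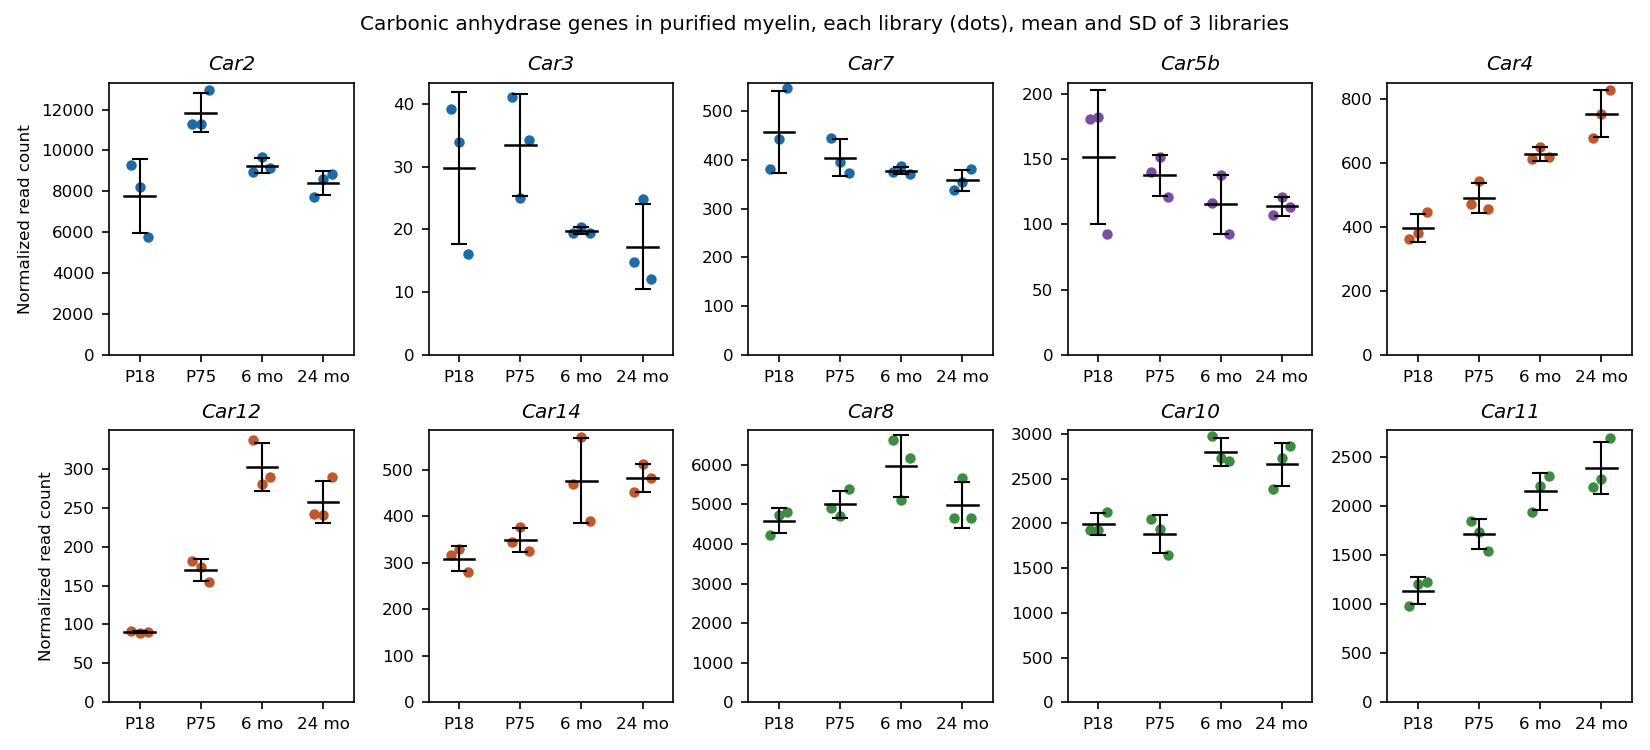
Normalized read count of each member in each of the 12 libraries (dots), with the mean and SD of 3 libraries per age, on linear axes from 0. Blue marks the cytosolic enzymes, purple the mitochondrial enzyme, orange the membrane-bound enzymes and green the members without catalytic activity. Car2 is highest at P75, and the 3 orange genes are higher in every 24-month library than in any P18 library.

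All 3 membrane-bound enzymes were higher at 24 months than at P18. Car12, a transmembrane enzyme, had the largest change of the 10 members from P18 to 24 months. Its normalized read count was 91.5, 89.3 and 90.4 at P18 and 181.4, 173.4 and 154.8 at P75. The 6-month libraries had 337.2, 280.5 and 289.0, and the 24-month libraries 241.7, 241.1 and 288.8. The first 3 ages did not overlap, while 24 months overlapped 6 months. Car12 rose 1.87-fold from P18 to P75 (log2 change 0.90, SE 0.12, adjusted p = 2.67e-05, limma). It rose a further 1.77-fold from P75 to 6 months (log2 change 0.83, SE 0.12, adjusted p = 2.94e-05, limma). From 6 to 24 months its log2 change was -0.23 (95% interval -0.48 to 0.02, adjusted p = 0.174, limma). At 24 months it stood 2.82-fold above P18 (adjusted p = 2.03e-08, limma).

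Car4, an enzyme held on the outer membrane face by a lipid anchor, rose in all 3 steps and was the only member called from 6 to 24 months. It measured 362, 382 and 446 normalized reads at P18 and 471, 544 and 458 at P75. It was 612, 652 and 618 in the 6-month libraries and 680, 755 and 828 in the 24-month ones. No 2 consecutive ages overlapped. The rises were 1.24-fold (log2 change 0.31, adjusted p = 0.0265), 1.28-fold (0.36, adjusted p = 0.00897) and 1.2-fold (0.26, adjusted p = 0.0863), each with an SE of 0.10 on the log2 scale by limma. Over the whole span Car4 rose 1.90-fold (log2 change 0.93, adjusted p = 1.08e-06, limma).

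The first and the last of these steps were close to the threshold. The first lost its call without P18 replicate 1 (adjusted p = 0.109, limma) or P75 replicate 2 (adjusted p = 0.122, limma). The last was lost without any 1 of the 6-month libraries or without 24-month replicate 2 or 3, with log2 changes of 0.19 to 0.29. It was also lost with no filter on low values and with libraries scaled to the same total. The rise from P18 to 24 months kept its call with every library left out in turn.

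Car14, a transmembrane enzyme, rose in a single step. Its normalized read count was 317, 330 and 279 at P18 and 344, 376 and 325 at P75. The counts of the 6-month libraries were 469, 571 and 389, and those of 24 months 452, 513 and 483. P18 and P75 overlapped, and all 6-month and 24-month libraries were above all P18 and P75 libraries. Car14 rose 1.35-fold from P75 to 6 months (log2 change 0.44, SE 0.13, adjusted p = 0.00776, limma) and was 1.56-fold higher at 24 months than at P18 (adjusted p = 0.000281, limma). Aph1a, whose exons overlap it, also rose from P75 to 6 months (log2 change 0.49, adjusted p = 0.000209, limma). The strand setting of the counting is not given in the sources used here, so reads from the shared bases cannot be told apart.

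Markers of the choroid plexus, the epithelium that makes cerebrospinal fluid, were like these 3 enzymes higher at 24 months than at P18. The single steps were not the same for all. Car14 was not called from P18 to P75, and Car12 and Car14 were not called from 6 to 24 months, where Ttr rose 1.55-fold (adjusted p = 0.00339, limma). Of Ttr, Kl, Folr1, Kcnj13, Clic6 and Aqp1, none fell in any comparison. In the 3 consecutive steps 4, 5 and 1 of them rose, and all 6 were higher at 24 months than at P18. Of all tested genes 25.9%, 31.2%, 16.6% and 34.7% were called higher in these 4 comparisons. The summed level of the choroid plexus markers was 12610 to 14702 normalized reads at P18 and 23532 to 28932 at P75. At 6 months the level was 27605 to 31968 and at 24 months 42783 to 47442, and none of the 6 was at 0. Ttr, the transthyretin gene, made up most of it with a mean of 13440 at P18 and 44404 at 24 months. The endothelial genes Cldn5, Flt1, Pecam1, Cdh5, Slco1a4 and Tek summed to 498.3 to 572.5 at P18 and 499.9 to 544.9 at 24 months. Of these 6, Flt1 (1.71-fold), Cdh5 (1.64-fold) and Pecam1 (1.26-fold) rose over this span and Cldn5 fell to 0.718 times its P18 level. Of the microglia genes Itgam, Cx3cr1, Csf1r, Aif1, P2ry12 and Tmem119, 3, 4 and 1 rose in the 3 consecutive steps. From P18 to 24 months 5 of them rose, and Aif1 fell from P75 to 6 months. The part of any of these cell types in the rise of Car4, Car12 and Car14 was not tested.

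**Figure D5:**
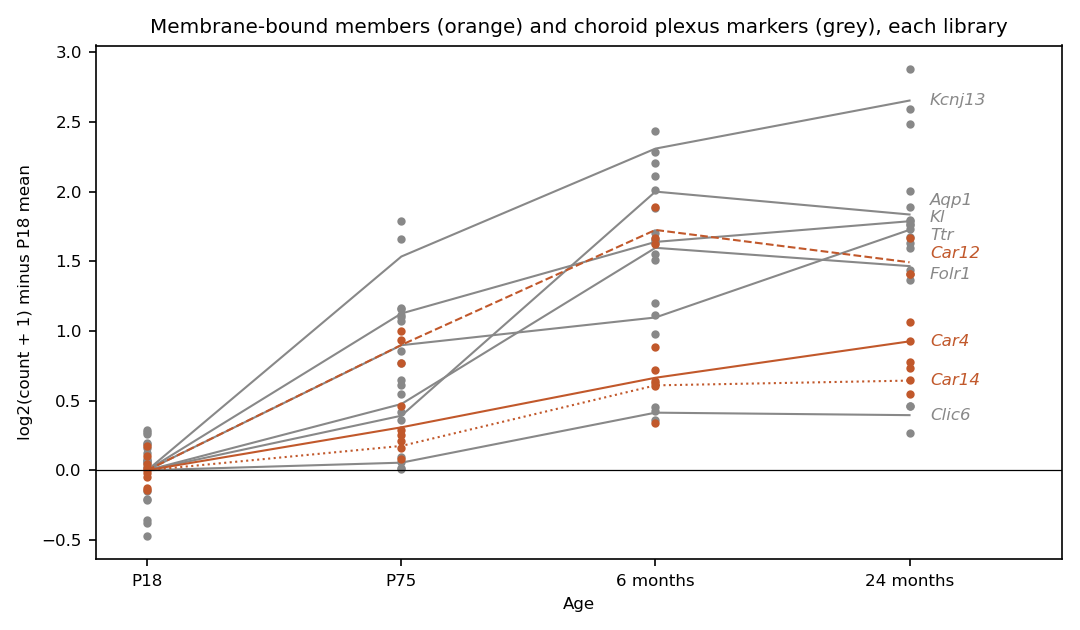
log2(normalized read count + 1) minus its P18 mean for Car4, Car12 and Car14 (orange) and 6 choroid plexus markers (grey) by age. Dots are libraries and lines join the means of 3 libraries. All 9 genes end above their P18 mean, Car12 by 1.49 and Car4 by 0.93.

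The members without catalytic activity were the most abundant after Car2. Car8, a protein known from cerebellar Purkinje cells where it binds the inositol trisphosphate receptor Itpr1, was highest at 6 months. It measured 4223, 4726 and 4809 normalized reads at P18 and 4917, 4701 and 5384 at P75. It was 6626, 5098 and 6175 in the 6-month libraries and 4649, 5655 and 4658 in the 24-month ones. Neighbouring ages overlapped in every step. Car8 rose 1.19-fold from P75 to 6 months (log2 change 0.25, SE 0.11, adjusted p = 0.0673, limma). The call was lost without either P75 replicate 1 or 2, or 6-month replicate 1 or 3, with adjusted p up to 0.256, and with libraries scaled to the same total. From 6 to 24 months its log2 change was -0.26 (95% interval -0.49 to -0.02) and missed the threshold over all genes (adjusted p = 0.108, limma). This change was called without 6-month replicate 2 (log2 change -0.37, adjusted p = 0.0486, limma), without 24-month replicate 2 (-0.35, adjusted p = 0.0736) and in a fit of only the libraries of these ages (adjusted p = 0.091).

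Of the Purkinje and cerebellar markers, 6 of 7 were in the table under the symbols used, and from P75 to 6 months 3 rose and 1 fell. Their summed level was 33698 to 36081 normalized reads at P75 and 26129 to 27880 at 6 months. Pcp4, the gene that fell, made up most of this sum at P75, with a mean of 22466 at P75 and 11247 at 6 months. Calb1, a calcium-binding protein of Purkinje cells, averaged 5822 ± 575 at P75 and 7520 ± 688 at 6 months (SD, n = 3). Gabra6 and Cbln1 were the others that rose. Pcp2 averaged 1789 ± 145 at P75 and 1729 ± 398 at 6 months and was not called. From 6 to 24 months Pcp2 rose (log2 change 0.44, adjusted p = 0.0804, limma). Itpr1 averaged 3701 ± 598 at P18 and 8453 ± 712 at P75. It was 13550 ± 1747 in the 6-month and 11636 ± 686 in the 24-month libraries. The part of Purkinje cell RNA in the Car8 values was not tested.

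Car10, a secreted protein that binds neurexins, changed in 1 step. Its normalized read count was 1927, 1922 and 2131 at P18 and 2054, 1939 and 1643 at P75. The 6-month libraries had 2978, 2729 and 2695, and the 24-month libraries 2386, 2727 and 2863. All 6 later libraries were above all 6 earlier ones. Car10 rose 1.5-fold from P75 to 6 months (log2 change 0.58, SE 0.10, adjusted p = 0.000125, limma) and stood 1.33-fold above P18 at 24 months (log2 change 0.41, adjusted p = 0.00146, limma). Both calls were kept with every library left out in turn.

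Car11, a close relative of Car10 and also secreted, rose earlier. It measured 985, 1210 and 1221 normalized reads at P18 and 1849, 1738 and 1545 at P75. It was 1941, 2202 and 2308 in the 6-month libraries and 2197, 2273 and 2689 in the 24-month ones. P18, P75 and 6 months did not overlap, and 24 months overlapped 6 months. Car11 rose 1.5-fold from P18 to P75 (log2 change 0.59, SE 0.11, adjusted p = 0.000473, limma) and 1.26-fold from P75 to 6 months (log2 change 0.33, adjusted p = 0.0176, limma). At 24 months it was 2.10-fold above P18 (adjusted p = 3.39e-07, limma), the second largest change after Car12. The 5 neuronal genes summed to 131195 to 159264 normalized reads at P18 and 124516 to 128197 at 24 months. Snap25 made up most of this sum, with means of 109014 and 91614, while Syt1, a vesicle protein, rose 4.89-fold over the same span. Stmn2, Rbfox3 and Nefl fell to 0.509, 0.664 and 0.807 times their P18 levels by 24 months. From P18 to P75 Syt1 was not called (adjusted p = 0.137, limma). The part of the neuronal genes in the Car10 and Car11 results was not tested.

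For each member the genes with the most similar pattern were sought by Pearson r of log2 levels over the 12 libraries, among 11305 genes with a mean of at least 100. These values are descriptions, since the libraries of an age share their age and every r contains the age differences. The closest to Car2 were Bnip3l (r = 0.96), Rragd (0.94) and Dixdc1 (0.93), which were highest at P75 as well. Car4 was closest to Bsg (0.99), Pnoc (0.99) and Ssr2 (0.99). Bsg, the partner of monocarboxylate transporters at the membrane, averaged 6340, 8413, 10677 and 13154 normalized reads at the 4 ages. Car12 was closest to Slc35b4 (0.99), Hapln4 (0.99) and Tmem184b (0.99), and Car14 to Pbxip1 (0.95), Fyco1 (0.95) and Siae (0.95).

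Car10 was closest to Slitrk3 (0.99), Ubxn4 (0.98) and Gal3st3 (0.98), and Car11 to Adra2c (0.98), Plxna3 (0.98) and Sumf2 (0.98). Car8 had weaker neighbours, Cep76 (0.88), Usp9x (0.87) and Cul4b (0.86). Those of Car7 were Zfhx2 (0.91), Garnl3 (0.90) and Zfp30 (0.89). Those of Car5b were Tprkb (0.91), Dnajb2 (0.90) and the bicarbonate exchanger Slc4a2 (0.89). Neither Car5b nor Slc4a2 differed over the 4 ages (adjusted p = 0.309 and 0.692, limma F-test), and both had their lowest P18 value in replicate 3. Those of Car3 were Btbd1 (0.93), Arhgef26 (0.92) and Hmgxb4 (0.92). Among the members themselves r was highest for Car4 with Car11 (0.94) and Car11 with Car12 (0.93), and lowest for Car3 with Car4 (-0.72).

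Car13, a cytosolic enzyme, was the only one of the 3 tested family genes outside the list that was called in either of the first steps. It averaged 36.9 ± 11.2 normalized reads at P18 and 54.4 ± 5.11 at P75. At 6 months the level was 105.4 ± 11.1 and at 24 months 110.6 ± 21.1 (SD, n = 3). It rose in both of the first steps, 1.51-fold (log2 change 0.59, adjusted p = 0.0329, limma) and 1.92-fold (log2 change 0.94, adjusted p = 0.00133, limma), as Car4, Car11 and Car12 did. Car9 averaged 11.3 to 20.8 and Car15 97.4 to 135.9 normalized reads at the 4 ages, and from P18 to 24 months Car9 fell (adjusted p = 0.0196, limma) and Car15 rose (adjusted p = 0.0263, limma). However, 82% of the exon bases of Car15 are shared with Gm20518. Car1, Car5a and Car6 were at or below 5.53 normalized reads in every library and were not tested. Ptprz1 and Ptprg, receptor phosphatases with an outer carbonic anhydrase-like domain, were both higher at 24 months than at P18, 2.19-fold (adjusted p = 1.58e-06, limma) and 1.70-fold (adjusted p = 2.36e-06, limma).

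A list of 26 genes of acid-base transport and genes set with them was put beside the members. It held bicarbonate carriers (Slc4), sodium-proton exchangers (Slc9) and monocarboxylate carriers (Slc16), and also Bsg, Aqp4, Itpr1, Slc12a2 and Slc26a6. Of the 26 genes, 24 were tested. Not all are acid-base carriers, as Itpr1 is the receptor that Car8 binds. Itpr1 and Slc12a2 are among those that rose in both of the first steps and over the whole span, and Aqp4 among those over the whole span. From P18 to P75, 17 rose and 2 fell. From P75 to 6 months 15 rose and 1 fell, from 6 to 24 months 7 rose and none fell, and from P18 to 24 months 21 rose and 2 fell. Of all tested genes 48.8%, 60.6%, 29.3% and 69% were called in the 4 comparisons, 25.9%, 31.2%, 16.6% and 34.7% as higher. The median log2 change of the list was 0.44, 0.38, 0.21 and 1.05, against 0.02, 0.01, 0.03 and -0.01 over all tested genes. Slc4a11, a membrane carrier of the bicarbonate transporter family, had the largest rise of the list in the first step (log2 change 1.63, adjusted p = 0.00544, limma), the last step (1.19, adjusted p = 0.0556) and over the whole span (2.67, adjusted p = 3.69e-05). From P75 to 6 months it was Slc9a7 (log2 change 1.28, adjusted p = 0.00241, limma). The largest falls were those of Slc4a1, the exchanger of red blood cells, from P18 to P75 (log2 change -3.29, adjusted p = 0.000568, limma) and from P18 to 24 months (log2 change -2.49, adjusted p = 0.00228, limma). From P75 to 6 months Slc26a6 alone fell (log2 change -0.31, adjusted p = 0.0666, limma). The changes of Slc4a11, Slc4a1 and Slc9a7 rest on few reads. Slc4a11 had 4, 2 and 11 reads in the P18 libraries. At P75 Slc4a1 had 3, 5 and 1 reads and Slc9a7 had 21, 17 and 13.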

How the data were processed

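RNA of myelin was measured in 12 libraries, 3 at each of 4 ages. Per the labels, the authors aligned the Illumina reads to mm9 with TopHat2 2.0.8 (the methods name another TopHat version), handled alignments with SAMtools 0.1.19, counted reads per gene with HTSeq 0.5.4p1 and normalized them for library size with DESeq. The signal as deposited is this normalized read count, linear and not corrected for length. In each library 100% of the values up to a limit of 2000 came out as whole reads within 0.05 read, which gave the depths. The number of columns of per-sample values left unused was 0.

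Ages were compared with limma 3.58.1 (R 4.3.3; trend, empirical Bayes) on log2(value + 1) for 14634 genes averaging 10 or more, in a single model of the 12 libraries, with Benjamini-Hochberg adjustment over all genes and a threshold of 0.1. Fold changes are on this scale, which understates those of low genes. Values within a library were compared with exact permutation tests (SciPy 1.17.1), tables were handled with pandas 2.3.3 and plots were drawn with matplotlib 3.10.9. edgeR 4.0.16 and DESeq2 1.42.0 on the recovered reads, other scalings, filters and pseudocounts, a replicate block and leaving out each library were alternatives. The fit was tested on simulated data.

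Exon lengths are merged exons of GENCODE vM1 on NCBIM37. The text names all members, the other family genes, 2 genes with a related domain, the acid-base gene with the largest called change in each direction, the 3 genes most correlated with each member, and markers beside a result. The marker lists were used without some genes that are not reported here. Aph1a was added after its values were seen. The members and lists were chosen with earlier results of these data known. Equal replicate numbers at different ages are different mice. Deviations of same-numbered libraries from their age means correlated at 0.101 to 0.187 between P75 and 6 months and at -0.213 to 0.029 in the other comparisons, and no call between P75 and 6 months changed with the block.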

Additional observations from a re-analysis of the deposited data

How the results depend on the processing

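Of 716 results of a member under an alternative, 634 kept their direction and their side of the threshold, 37 lost the call, 17 gained one and 28 changed sign, 3 of them among called changes. The 4, 8, 1 and 7 members called from P18 to P75, P75 to 6 months, 6 to 24 months and P18 to 24 months were also 4, 8, 1 and 7 with edgeR and with DESeq2. With the replicate block they were 4, 8, 1 and 8, the added call being Car5b (log2 change -0.35, adjusted p = 0.0915, limma). Leaving out each library in turn gave 3 to 5, 6 to 7, 0 to 1 and 6 to 7, and 7 to 10 for the F-test. From 6 to 24 months the count was 0 with no filter, with the same total or at an adjusted p of 0.05, and 2 with only the libraries compared or with quantile normalization.

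With scaling to the myelin genes the median log2 change of all genes was 0.90, -0.26, 0.30 and 0.88, against 0.02, 0.01, 0.03 and -0.01 with the deposited size factors, with 10, 4, 0 and 9 members called. By this scaling 12884, 1399, 2743 and 11712 of the 14634 tested genes were called higher, and 80, 4765, 86 and 221 lower. Of the genes called, 99.4%, 22.7%, 97% and 98.1% were then higher, against 53%, 51.4%, 56.8% and 50.3% with the deposited size factors. With the same total the median was 0.14 from P18 to P75, where 72.2% of calls were higher, and 46.4% of calls were higher from 6 to 24 months. With quantile normalization it was -0.12 from P18 to 24 months. The cause was not tested.

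Signs changed under the myelin scaling for Car10 (0.794), Car5b (0.802) and Car7 (0.72) from P18 to P75, for Car8 (-0.014) from P75 to 6 months, for Car10 (0.189), Car12 (0.034), Car2 (0.125), Car3 (0.017), Car5b (0.262), Car7 (0.187) and Car8 (0.01) from 6 to 24 months, and for Car3 (0.168), Car5b (0.54) and Car7 (0.55) from P18 to 24 months. With the same total they changed for Car10 (0.035) and Car5b (0.042) from P18 to P75 and for Car14 (-0.006) from 6 to 24 months. Without 1 library they changed from P18 to P75 for Car5b (range -0.404 to 0.08), Car3 (-0.148 to 0.47) and Car10 (-0.158 to 0.003), from 6 to 24 months for Car5b (-0.154 to 0.13) and Car14 (-0.102 to 0.173), and from P18 to 24 months for Car2 (-0.062 to 0.282). Against the median in place of the mean of the myelin genes, the difference of Car2 from 6 to 24 months was -0.0112. With the longest transcript as length Car7 and Car14 swapped ranks 6 and 7 over all libraries. Counting depth limits Car3, with 13 to 41 reads a library.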
